A study of Rattus norvegicus with 8 samples.

Results

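The constitutive proteasome genes were measured in rat trigeminal nerve, the main sensory nerve of the face. All genes whose symbol on the array starts with Psma, Psmb, Psmc or Psmd were taken, apart from Psmb8, Psmb9 and Psmb10, which encode the inducible subunits of the immunoproteasome. This gave 35 of the 13337 genes with a named probe, each with 1 probe, and 33 of them had a probe bright enough to be tested. The set held 16 core particle genes, 18 regulatory particle genes and Psmc3ip, whose product acts in meiotic recombination and is not a proteasome subunit. Among the 18 were Psmd5 and Psmd9, which encode assembly chaperones of the base and were kept in the regulatory summaries. Psmc3ip was counted among the 33 tested members and left out of all particle summaries. The regulatory particle genes Psmd10 and Psmd14 were not analysed here.

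The proteasome is the main protease for ubiquitin-tagged proteins in the cytosol and nucleus. Its core particle is a barrel made of outer rings of alpha subunits (Psma genes), which form the gate, and inner rings of beta subunits (Psmb genes), which hold the cutting sites. The regulatory particle docks on the barrel, where a lid removes ubiquitin and a base with a ring of ATPases (Psmc genes) unfolds the substrate. Subunits are needed in fixed proportions in the finished complex, and many of their genes are known to be induced together by the transcription factor Nfe2l1 when proteasome activity is short. In neurons, proteasomes are known for protein turnover in axons and at synapses.

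Nerves came from untreated 85-day-old rats of 4 strains. The parent strains were BDIV and BDIX. The strain BDIX.BDIV-Mss4d, called Mss4d below, and the strain BDIX.BDIV-Mss4a, called Mss4a, are by their names congenic, with a stretch of the BDIV genome on the BDIX background. The BDIX strain is known to develop malignant nerve tumours after ethylnitrosourea and the BDIV strain to resist them, but none of the rats measured here had been treated. RNA of pooled nerves was read on 8 Illumina RatRef-12 bead arrays, 1 female and 1 male pool for each strain, and the number of rats in a pool is not given in the sources used here.

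Values are log2 bead signals after background correction and quantile normalization, and levels of different probes were not compared. The 2 pools of a strain differ in sex, so the p-values measure the spread between these 8 pools after strain and sex were taken out. The median signal lay between 80.2 and 145 on the arrays, between 47.7% and 54.3% of probes were detected, and brightness differed by strain, so strain and array batch cannot be told apart. Of the 35 proteasome probes, 30 to 33 were detected per array (detection p under 0.05). The pools also differed in tissue makeup. Of all tested probes 21% passed a limma adjusted p under 0.05 in BDIV against BDIX (10% higher and 11% lower). Of 17 tested sensory neuron markers, 9 rose and 0 fell in BDIV against BDIX. Without Calca, left out after its values were seen, which was at 14.83 in the Mss4d male pool, 8.92 in the Mss4d female pool and 4.62 to 4.79 elsewhere, the summed normalised signal of the other 16 was 170781 to 172185 in BDIV, 92507 to 108590 in BDIX, 103730 to 128914 in Mss4a and 66584 to 102773 in Mss4d. Of 12 myelinating Schwann cell markers, 8 fell and 0 rose in BDIV against BDIX, with sums of 67281 to 82007 in BDIV and 126997 to 171737 in BDIX. Of 8 red cell markers 6 fell and of 11 fibroblast and perineurium markers 6 fell in the same comparison. There 4 of 8 tested granulocyte markers fell and 0 rose, and 2 of 4 tested skeletal muscle markers rose and 0 fell. Alas2 and Hemgn, among the red cell markers that fell, were not detected on either BDIV array. The thyroid markers summed to 36655 in the Mss4d male pool and 4889 in the Mss4d female pool, against 110 to 224 on the other arrays. In such bulk RNA, fewer cells of a type and less RNA per cell cannot be told apart. The part of tissue makeup in the differences below was not tested.

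Promoters are shown for the members with the strongest strain differences (Psma1, Psmd5 and Psmd3) and for 3 beta ring genes that were low in the BDIX female pool (Psmb3, Psmb5 and Psmb6). The sequences are RefSeq's, from the GRCr8 assembly, and run 5′ to 3′ on the gene's strand from 250 bases before to 50 after its start. They lie at chr1:177887808-177888107 on the minus strand for Psma1, chr3:38548441-38548740 on the minus strand for Psmd5, chr10:84139688-84139987 on the plus strand for Psmd3, chr10:83193537-83193836 on the plus strand for Psmb3, chr15:32047330-32047629 on the minus strand for Psmb5 and chr10:55737638-55737937 on the plus strand for Psmb6. Capitals mark matches on either strand to TGACNNNGC, the core of the antioxidant response element to which Nfe2l1 and Nfe2l2 bind with small Maf proteins, to CCAAT (bound by NF-Y), to GGGCGG (bound by Sp1) or to CCGGAAG (bound by Ets factors). No matches overlapped in these sequences.
Psma1: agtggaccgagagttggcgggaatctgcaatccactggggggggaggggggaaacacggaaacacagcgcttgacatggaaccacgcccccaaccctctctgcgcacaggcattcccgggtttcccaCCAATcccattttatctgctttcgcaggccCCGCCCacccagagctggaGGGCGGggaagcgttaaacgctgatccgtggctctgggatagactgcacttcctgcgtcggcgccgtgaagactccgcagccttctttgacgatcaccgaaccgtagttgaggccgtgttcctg
Psmd5: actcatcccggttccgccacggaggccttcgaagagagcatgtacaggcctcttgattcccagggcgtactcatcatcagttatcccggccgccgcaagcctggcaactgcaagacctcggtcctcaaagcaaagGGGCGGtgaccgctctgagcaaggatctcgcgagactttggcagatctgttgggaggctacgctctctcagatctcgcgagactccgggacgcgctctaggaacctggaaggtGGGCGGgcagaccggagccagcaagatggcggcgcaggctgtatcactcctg
Psmd3: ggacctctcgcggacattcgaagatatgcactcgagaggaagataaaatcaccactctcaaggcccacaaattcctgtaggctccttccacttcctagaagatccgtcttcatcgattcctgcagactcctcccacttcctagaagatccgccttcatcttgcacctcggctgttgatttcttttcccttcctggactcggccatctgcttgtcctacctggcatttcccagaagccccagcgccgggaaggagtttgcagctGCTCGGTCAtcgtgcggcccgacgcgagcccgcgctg
Psmb3: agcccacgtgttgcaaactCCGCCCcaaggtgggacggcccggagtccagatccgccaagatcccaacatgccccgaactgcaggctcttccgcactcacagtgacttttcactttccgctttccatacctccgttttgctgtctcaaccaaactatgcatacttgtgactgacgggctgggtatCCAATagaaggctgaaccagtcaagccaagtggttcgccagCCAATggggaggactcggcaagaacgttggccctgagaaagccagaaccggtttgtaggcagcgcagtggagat
Psmb5: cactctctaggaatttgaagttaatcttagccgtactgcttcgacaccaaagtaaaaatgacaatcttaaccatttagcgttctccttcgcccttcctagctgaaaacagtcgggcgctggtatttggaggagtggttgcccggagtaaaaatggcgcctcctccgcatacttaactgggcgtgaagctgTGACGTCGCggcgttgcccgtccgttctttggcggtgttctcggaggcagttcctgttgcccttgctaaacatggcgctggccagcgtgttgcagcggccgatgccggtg
Psmb6: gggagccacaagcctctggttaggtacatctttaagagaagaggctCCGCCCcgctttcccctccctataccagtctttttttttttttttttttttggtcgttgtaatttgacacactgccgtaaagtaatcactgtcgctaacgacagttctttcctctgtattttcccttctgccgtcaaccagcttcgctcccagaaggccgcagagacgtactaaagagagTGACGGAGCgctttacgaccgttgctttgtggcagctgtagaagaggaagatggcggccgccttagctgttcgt

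The element core TGACNNNGC began 60 bases before the start in Psmb5, 24 before it in Psmb6 and 14 after it, on the other strand, in Psmd3. Psma1 held 1 CCAAT and 2 GGGCGG, Psmb3 held 2 CCAAT and 1 GGGCGG, Psmb6 held 1 GGGCGG and Psmd5 held 2 GGGCGG. RefSeq promoters were found for 31 of the 35 members. TGACNNNGC was present in 7 of them (22.6%), namely Psma3, Psmb2, Psmb5, Psmb6, Psmd1, Psmd3 and Psmd9, against 12.1% of 33469 rat promoters of the same length. CCAAT was present in 51.6% of members against 37.5% of all promoters, GGGCGG in 71% against 33.1%, and CCGGAAG in 38.7% against 8.75%. These matches describe the letters of the window only.

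Across the 4 strains, 9 of the 33 tested members differed in limma's moderated F test (27.3%, Benjamini-Hochberg adjusted p under 0.05), below the 39.9% of all 13114 tested probes. The 9 were Psma1, Psma5, Psma6 and Psma7 of the alpha ring, Psmb1 of the beta ring, Psmc3 and Psmc4 of the ATPase ring, the lid gene Psmd3 and the assembly chaperone gene Psmd5. Psma1, Psmd5 and Psmd3 had the smallest adjusted p-values in limma (0.00402, 0.00402 and 0.00482) and ranked 83, 90 and 229 among all tested probes. The residual SD of the members had a median of 0.149, against 0.217 over all tested probes. The count of 9 was not stable when 1 array was left out. Such a fit holds 1 pool of that strain, so calls can change over all tested probes as well.

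**Figure D1:**
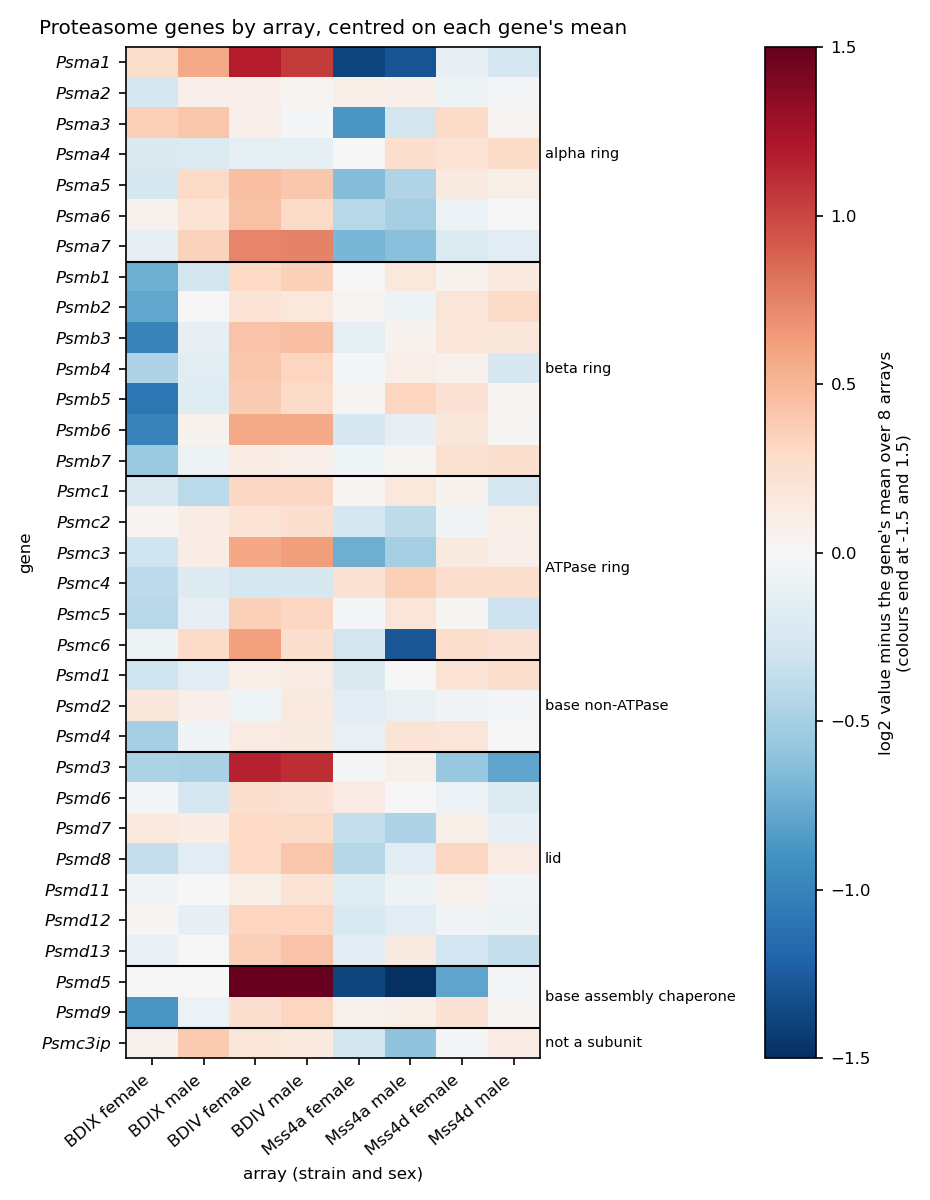
Log2 values of the 33 tested members (rows, grouped by role) on the 8 arrays (columns), each centred on the gene's mean; red is above and blue below that mean, and colours end at 1.5. Psma1, Psmd3 and Psmd5 stand out in BDIV, 5 of 7 alpha ring genes are low in Mss4a, and the 7 beta ring genes are at their lowest on the BDIX female array.

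The core and the regulatory particle did not separate by strain. Each gene was centred on its own mean over the 8 arrays, and the median over the 14 tested core genes minus the median over the 18 regulatory genes was taken per array. Given as female then male, this value was -0.20 and 0.09 in BDIX, 0.10 and 0.01 in BDIV, 0.07 and 0.02 in Mss4a, and 0.10 and 0.06 in Mss4d. The BDIX female array was the lowest, and the other 7 lay between 0.01 and 0.10. Differences between strain means ran from -0.04 to 0.14, against a pooled SD within strains of 0.11. Without the BDIX female array the value for BDIV minus BDIX was -0.02, for Mss4a minus BDIX -0.07 and for Mss4d minus BDIX 0.02. Without the BDIX male array these were 0.23, 0.22 and 0.28. No test was made on this score, since it runs over chosen genes.

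**Figure D2:**
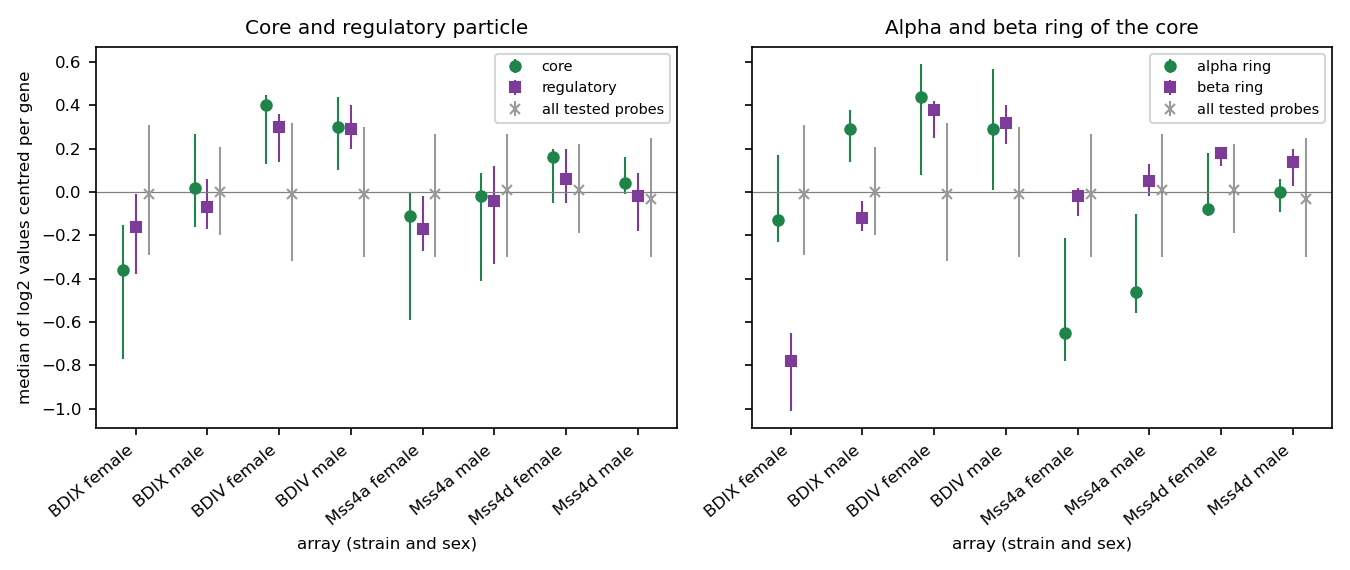
Median over each group of genes of the log2 value centred per gene (points), with the lower and upper quartile over genes (lines), on each of the 8 arrays, for core, regulatory and all tested probes (left) and for the alpha ring, the beta ring and all tested probes (right). Core and regulatory medians move together, while the alpha ring is at -0.65 and -0.46 in Mss4a and the beta ring at -0.78 on the BDIX female array.

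Most proteasome genes of both particles had a higher value in BDIV than in BDIX. In BDIV 6 members rose and none fell against BDIX. They were Psma1, Psmb1 and Psmb3 of the core, Psmc3 and Psmd3 of the regulatory particle, and the assembly chaperone gene Psmd5. These 6 are 18.2% of the 33, against 21% of all tested probes (10% higher and 11% lower), so the number of calls was near the background. The log2 difference was above 0 for 30 of 33 members, with a median of 0.42, while 47.8% of all tested probes were above 0 and their median was -0.03. Psmd8, at 0.63, is among the 30 and in the regulatory and lid medians. It was detected in neither BDIX pool and met the filter only through BDIV and Mss4d. The medians were 0.60 for the core and 0.38 for the regulatory particle. By role they were 0.22 for the alpha ring, 0.84 for the beta ring, 0.47 for the ATPase ring, 0.34 for the other base subunits Psmd1, Psmd2 and Psmd4, and 0.37 for the lid. With the female BDIX array left out, the medians were 0.50 for the beta ring, 0.30 for the core and 0.40 for the regulatory particle. The 3 members below 0 were Psma3 at -0.36, Psmd2 at -0.09 and Psmc3ip. The sensory neuron markers had a median log2 difference of 1.13 in the same comparison and the Schwann cell markers one of -1.14. Their part in the result was not tested.

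Psmd3 encodes a subunit of the lid. Its log2 signal was 10.71 in the female and 10.70 in the male pool of BDIX, 12.34 and 12.29 in BDIV, 11.16 and 11.28 in Mss4a, and 10.62 and 10.40 in Mss4d. No strain overlapped another, and BDIV lay highest. BDIV exceeded BDIX 3.04-fold (log2 difference 1.60, SE 0.18, limma adjusted p = 0.00573), Mss4a 2.13-fold (1.09, SE 0.18, adjusted p = 0.00634) and Mss4d 3.49-fold (1.80, SE 0.18, adjusted p = 0.00242). Mss4a lay 0.51 above BDIX and 0.71 above Mss4d, neither past the threshold.

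Psmd5 encodes a chaperone that helps assemble the base and is not part of the finished proteasome. Its log2 signal was 7.30 and 7.31 in the female and male pools of BDIX, 9.27 and 9.12 in BDIV, 5.93 and 5.72 in Mss4a, and 6.51 and 7.28 in Mss4d. BDIV lay far above the rest and Mss4a at the bottom, and the Mss4d male pool reached almost to BDIX. Psmd5 rose 3.70-fold in BDIV against BDIX (log2 1.89, SE 0.27, limma adjusted p = 0.00823) and fell 2.79-fold in Mss4a against BDIX (log2 -1.48, SE 0.27, adjusted p = 0.0236). BDIV stood 10.3-fold above Mss4a (log2 3.37, SE 0.27, limma adjusted p = 0.00142), the widest gap of any member. Psmd5 was close to background in both Mss4a pools (detection p 0.0145 and 0.0291). Without background correction BDIV minus Mss4a was 2.21 and Mss4a minus BDIX -0.78, both past the threshold. Mss4d minus BDIX was -0.41 (SE 0.27), which did not pass. The other tested assembly chaperone of the base, Psmd9, was at 0.76 in BDIV minus BDIX and 0.55 in Mss4a minus BDIX, and passed in neither.

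Psma1 encodes an alpha ring subunit. Its log2 signal was 7.78 and 8.08 in the female and male pools of BDIX, 8.69 and 8.56 in BDIV, 6.14 and 6.22 in Mss4a, and 7.39 and 7.25 in Mss4d. The 4 strains did not overlap, in the order BDIV, BDIX, Mss4d, Mss4a. Psma1 rose 1.62-fold in BDIV against BDIX (log2 0.69, SE 0.20, limma adjusted p = 0.0455) and fell 3.36-fold in Mss4a against BDIX (log2 -1.75, SE 0.20, adjusted p = 0.011). In Mss4d minus BDIX it was at -0.60 (SE 0.20), with an adjusted p of 0.113 in limma. BDIV exceeded Mss4a 5.44-fold and Mss4d 2.46-fold in limma (adjusted p = 0.00142 and 0.00521). Without background correction Mss4a minus BDIX was -1.05 and BDIV minus Mss4a 1.58, both past the threshold.

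The other members that rose in BDIV against BDIX were Psmb1, Psmb3 and Psmc3. Psmb1, a beta subunit without a cutting site, was at 12.47 and 12.93 in the BDIX pools, 13.51 and 13.57 in BDIV, 13.20 and 13.37 in Mss4a, and 13.26 and 13.35 in Mss4d. BDIX lay below all other arrays, and BDIV exceeded it 1.80-fold (log2 0.84, SE 0.19, limma adjusted p = 0.0241). Psmb3, also a beta subunit without a cutting site, was at 11.70 and 12.58 in BDIX, 13.13 and 13.15 in BDIV, 12.56 and 12.75 in Mss4a, and 12.88 and 12.87 in Mss4d. BDIV exceeded BDIX 2.0-fold (log2 1.0, SE 0.26, limma adjusted p = 0.035), and the BDIX male pool overlapped Mss4a. Psmc3, an ATPase subunit, was at 8.96 and 9.37 in BDIX, 9.84 and 9.88 in BDIV, 8.52 and 8.76 in Mss4a, and 9.39 and 9.33 in Mss4d. BDIV lay above the other strains, Mss4a below them, and BDIX and Mss4d overlapped (BDIV minus BDIX 0.69, SE 0.20, limma adjusted p = 0.0455).

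The calls of BDIV minus BDIX were not stable when 1 array was left out. Such a fit holds 1 pool of that strain, so calls can change over all tested probes as well. Only differences are read from these fits here. Without the BDIX female array the log2 difference of Psmd3 stayed at 1.60 and that of Psmd5 at 1.97, while that of Psmb3 dropped from 1.0 to 0.60. Over all fits that left out an array, the difference of Psma1 ran from 0.52 to 0.88 and that of Psmc3 from 0.53 to 0.87.

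**Figure D3:**
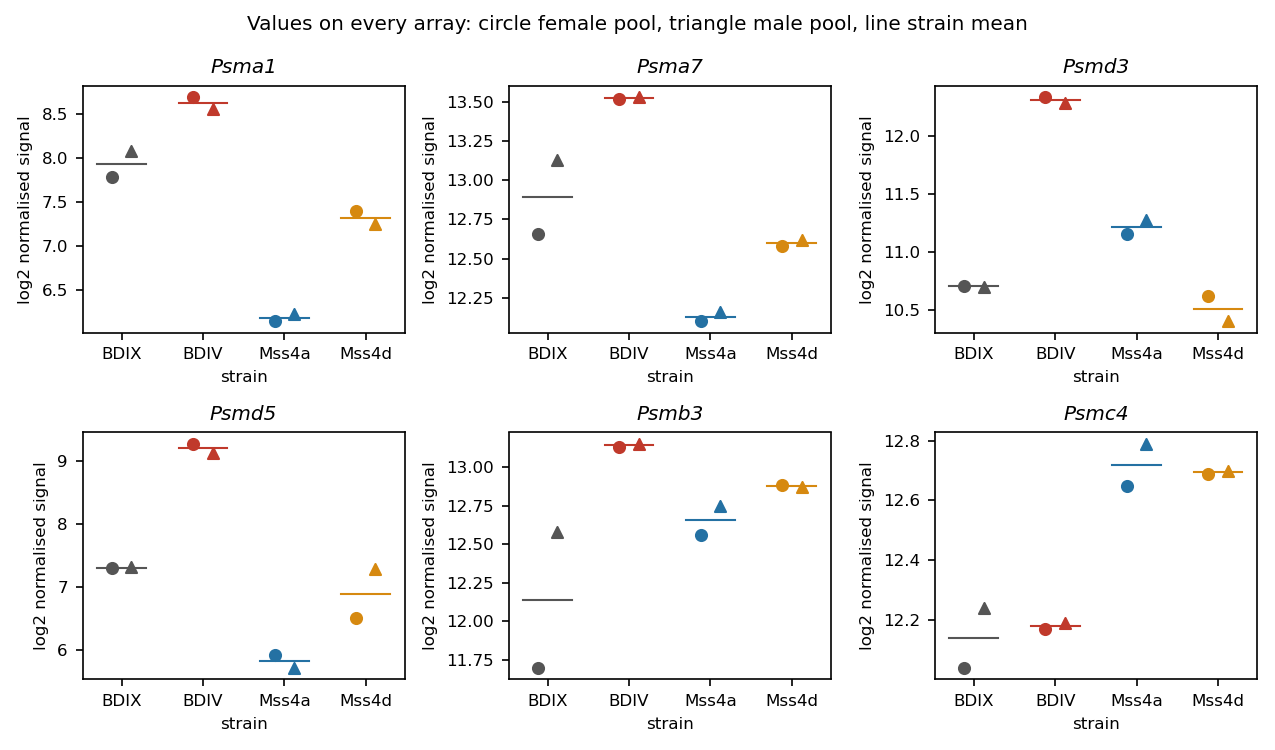
Log2 normalised signal of 6 members on every array (circle female pool, triangle male pool, line strain mean), with a separate vertical axis for each gene. Psma1 and Psma7 run in the order BDIV, BDIX, Mss4d, Mss4a, Psmd3 and Psmd5 are highest in BDIV, Psmb3 is low in the BDIX female pool, and Psmc4 is higher in Mss4a and Mss4d than in BDIX and BDIV.

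In Mss4a most alpha ring genes lay below BDIX and the beta ring genes above it. Against BDIX 4 members fell in Mss4a and none rose: Psma1, Psma3 and Psma7 of the alpha ring and Psmd5. These 4 are 12.1% of the members, against 12.2% of all tested probes (4.78% higher and 7.46% lower), so the share is that of the background. The log2 difference was below 0 for 5 of 7 alpha ring genes, with a median of -0.60, and above 0 for 7 of 7 beta ring genes, with a median of 0.37 and no gene past the threshold. With arrays scaled to their medians in place of quantiles, the median of all tested probes shifted to -0.37 and the beta ring median turned to -0.05, which is 0.32 above that shift, and the alpha ring median was -1.10. With the female BDIX array left out, the beta ring median was 0.11, with 5 of 7 genes above 0, and the alpha ring median was -0.83. Of 12 tested Schwann cell markers 6 fell in Mss4a against BDIX, and 1 of 17 sensory neuron markers rose. Of 11 fibroblast and perineurium markers 2 rose and 3 fell, and 2 of 4 skeletal muscle markers rose. Gjb1, among the Schwann cell markers that fell, was not detected on either Mss4a array. The part of these markers in the result was not tested.

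Psma7, an alpha subunit, was at 12.66 and 13.13 in the female and male pools of BDIX, 13.52 and 13.53 in BDIV, 12.10 and 12.16 in Mss4a, and 12.58 and 12.62 in Mss4d. The 4 strains stood in the same order as for Psma1 and did not overlap. Psma7 fell 1.69-fold in Mss4a against BDIX (log2 -0.76, SE 0.20, limma adjusted p = 0.0498, and -1.26 with arrays scaled to their medians) and was higher in BDIV than in Mss4a 2.63-fold (adjusted p = 0.00414) and than in Mss4d 1.90-fold (adjusted p = 0.0148). Psma3, an alpha subunit near the detection limit, was at 6.45 and 6.51 in BDIX, 6.17 and 6.07 in BDIV, 5.22 and 5.82 in Mss4a, and 6.38 and 6.13 in Mss4d. Mss4a lay below all other arrays, and its female pool was not above background (detection p 0.101). The difference from BDIX was -0.96 (SE 0.24, limma adjusted p = 0.0454). It was -0.63 without the Mss4a female array and -0.43 without background correction, and passed in neither.

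Within the alpha ring, Psma5 and Psma6 lay below BDIX in Mss4a without passing the threshold, and Psma2 and Psma4 lay above it. Psma5 was at 11.37 and 11.92 in the BDIX pools, 12.08 and 12.04 in BDIV, 10.98 and 11.18 in Mss4a, and 11.77 and 11.72 in Mss4d. Mss4a was lowest and BDIV highest, and BDIV exceeded Mss4a 1.97-fold (log2 0.98, SE 0.21, limma adjusted p = 0.0146). Psma2 varied least between strains in the alpha ring, with means of 12.41 in BDIX, 12.56 in BDIV, 12.58 in Mss4a and 12.45 in Mss4d. Psma4 had strain means of 11.58 in BDIX and 11.64 in BDIV against 11.91 in Mss4a and 12.03 in Mss4d.

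The alpha ring minus the beta ring, by centred medians per array, was 0.65 and 0.41 in the female and male pools of BDIX, 0.06 and -0.03 in BDIV, -0.63 and -0.50 in Mss4a, and -0.26 and -0.14 in Mss4d. The strains did not overlap, in the order BDIX, BDIV, Mss4d, Mss4a, and the pooled SD within strains was 0.11. Mss4a minus BDIX was -1.10, Mss4d minus BDIX -0.73 and BDIV minus BDIX -0.51. This contrast of rings was chosen after the values were seen and was not tested. Without the BDIX female array these differences were -1.01, -0.55 and -0.37.

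The calls of Mss4a minus BDIX were not stable when 1 array was left out. Calls can change over all tested probes in such fits as well, and only differences are read from them here. These ran from -1.94 to -1.57 for Psma1 and from -1.73 to -1.30 for Psmd5. For Psma3 they ran from -1.35 to -0.63 and for Psma7 from -0.99 to -0.54.

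In Mss4d against BDIX no member passed in limma (0 of 33), while 5.34% of all tested probes did (1.38% higher and 3.96% lower). An unadjusted p under 0.05 was reached by 10 members, and the smallest adjusted p in limma was 0.106, for Psmb1 (log2 0.61, SE 0.19). The beta ring had a median of 0.61, with 7 of 7 genes above 0, and the alpha ring one of -0.19. With the female BDIX array left out, the beta ring median was 0.31, and with the male one left out it was 1.02. With arrays scaled to their medians, where the median of all tested probes was 0.25, the alpha ring median turned to 0.31. Without the BDIX male array 5 members passed (Psmb2, Psmb3, Psmb5, Psmb6 and Psmd9), all higher in Mss4d, and 9.01% of all tested probes passed in that fit. The 3 comparisons with BDIX share its arrays, so the low beta ring values of the BDIX female pool enter each of them.

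Between the congenic strains only Psma1 passed, lower in Mss4a than in Mss4d (log2 -1.15, SE 0.20, 2.21-fold, limma adjusted p = 0.05 after rounding). That is 1 of 33 members (3.03%), against 1.22% of all tested probes (0.297% higher and 0.923% lower). It passed in 0 of 8 fits without an array, with differences between -1.24 and -1.02, and was -0.63 and did not pass without background correction. The member median was -0.22, with 24 of 33 below 0, among them Psmd5 at -1.07 and Psmc6 at -1.01. Psmd3 was the highest, at 0.71.

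BDIV was set beside each congenic strain as well. Against Mss4a 11 members rose in BDIV and none fell (33.3%), and 33.1% of all tested probes passed (16.3% higher and 16.8% lower). Psmd8 was not detected in Mss4a and met the filter only through strains where it was high, and without it 10 of 32 members rose (31.2%). The 11 were Psma1, Psma5, Psma6 and Psma7 of the alpha ring, Psmc2, Psmc3 and Psmc6 of the ATPase ring, Psmd3, Psmd7 and Psmd8 of the lid, and Psmd5. The 7 beta ring genes lay between 0.11 and 0.74 and none passed. Against Mss4d 5 members rose in BDIV and none fell (15.2%), namely Psma1, Psma7, Psmd3, Psmd5 and Psmd13, against 30% of all tested probes (15.1% higher and 14.9% lower). The member medians were 0.40 against Mss4a and 0.23 against Mss4d. The counts were not stable when 1 array was left out, where calls can change over all tested probes as well. In these fits the differences from Mss4a ran from 2.34 to 2.55 for Psma1 and from 3.19 to 3.62 for Psmd5. Those from Mss4d ran from 1.69 to 1.93 for Psmd3 and from 1.82 to 2.70 for Psmd5. With arrays scaled to their medians, where the median of all tested probes was 0.46 in BDIV minus Mss4a, the differences of Psma5, Psma6, Psma7, Psmc2, Psmc3, Psmd3 and Psmd7 were 1.77, 1.59, 2.14, 1.34, 2.01, 1.89 and 1.49. Of 17 sensory neuron markers, 9 rose and 0 fell in BDIV against Mss4a, and 14 rose and 1 (Calca) fell against Mss4d. In these 2 comparisons, 7 and 5 of 8 red cell markers, 4 and 6 of 12 Schwann cell markers and 6 and 5 of 11 fibroblast and perineurium markers fell, as did 2 of 3 thyroid markers against Mss4d. In the same lists 1 Schwann cell marker (Pllp) rose against Mss4a. The fibroblast and perineurium list had 1 marker (Cldn1) that rose against each congenic strain. Alas2, Hemgn, Tg and Calca were not detected in BDIV. The part of all these markers in the result was not tested.

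Psmd13, a lid subunit, was at 10.27 and 10.37 in the female and male pools of BDIX, 10.73 and 10.80 in BDIV, 10.21 and 10.51 in Mss4a, and 10.08 and 10.01 in Mss4d. BDIV was highest and Mss4d lowest, and they differed 1.64-fold (log2 0.72, SE 0.18, limma adjusted p = 0.0268), which was 0.45 and did not pass with arrays scaled to their medians. Psmc6, an ATPase subunit, was at 6.44 and 6.81 in BDIX, 7.14 and 6.77 in BDIV, 6.25 and 5.24 in Mss4a, and 6.78 and 6.74 in Mss4d. The Mss4a male pool stood apart and was not above background (detection p 0.0921), and without it BDIV minus Mss4a dropped from 1.21 to 0.73 and did not pass. Without background correction it was 0.59. Psmc4, another ATPase subunit, passed the F test alone (limma adjusted p = 0.0479). It was at 12.04 and 12.24 in BDIX, 12.17 and 12.19 in BDIV, 12.65 and 12.79 in Mss4a, and 12.69 and 12.70 in Mss4d, so both congenic strains lay above both parent strains.

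Psmd8, a lid subunit, was detected in 4 of 8 pools, both of BDIV and both of Mss4d. Its log2 signal was 5.61 and 5.73 in BDIV, 5.62 and 5.43 in Mss4d, 4.95 and 5.14 in BDIX, and 4.88 and 5.14 in Mss4a, where it was not well above background. Taken against the lowest detected signal of each dim array or the probe's own signal where higher, BDIV was at least 1.41-fold above BDIX and at least 1.17-fold above Mss4a. Mss4d was at least 1.28-fold above BDIX. The probe met the filter on dim probes only through BDIV and Mss4d, where it was high, so no test is read from it. Psma8, the alpha subunit of testis, and Psmb11, the beta subunit of the thymic cortex, were detected on 0 of 8 arrays and were not tested.

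**Figure D4:**
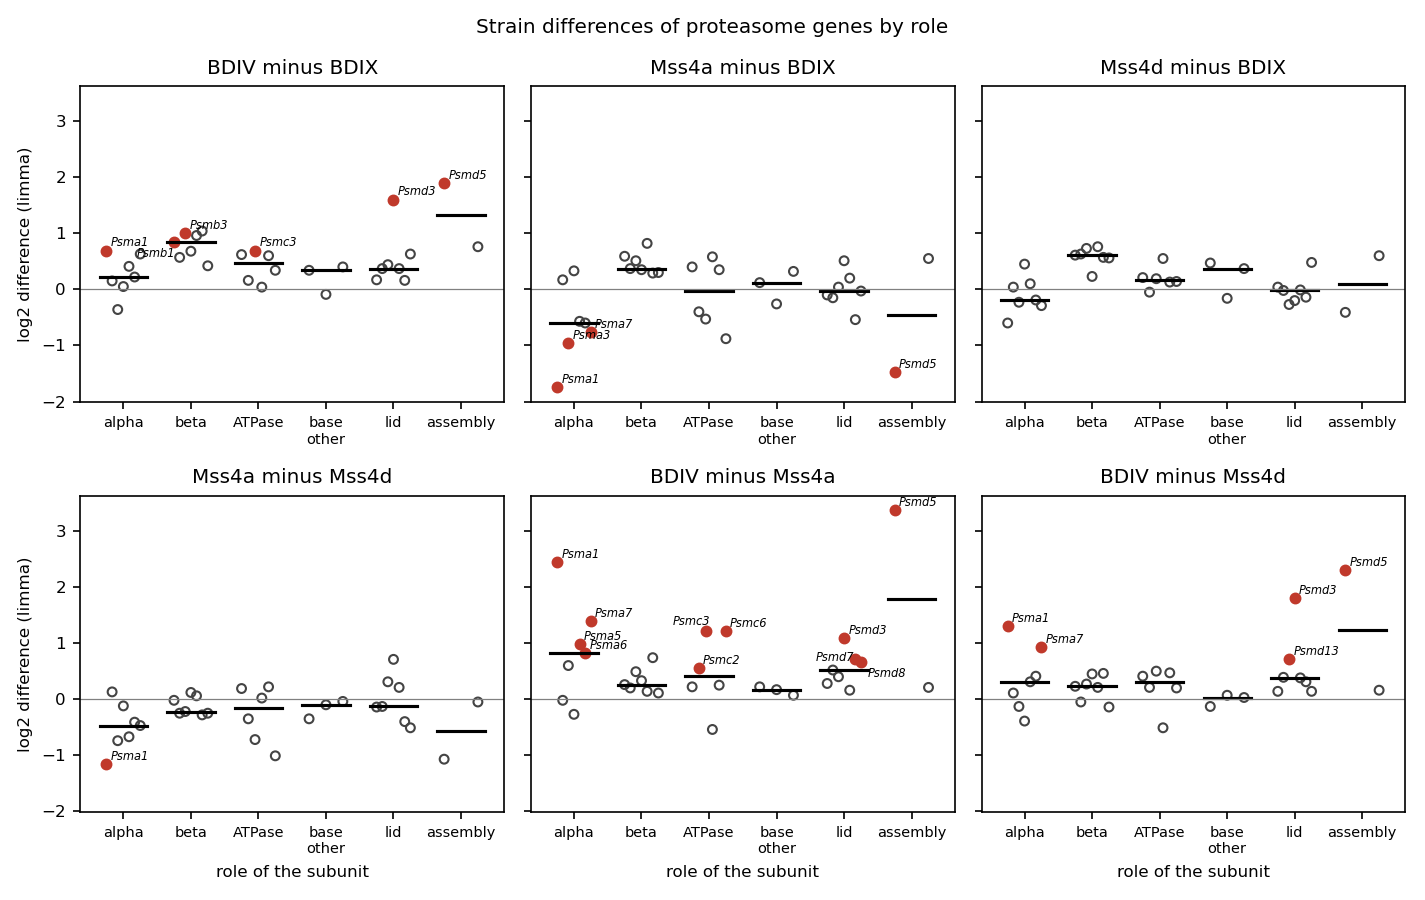
Log2 difference (limma) of the 32 tested subunit and chaperone genes in 6 strain comparisons, by role of the subunit; filled red points passed an adjusted p under 0.05, open points did not, and bars are medians of a role. Only higher genes passed where BDIV was compared with the other strains, only lower ones in Mss4a minus BDIX and in Mss4a minus Mss4d, and none in Mss4d minus BDIX; Psmd8 is drawn at its measured mean although BDIX and Mss4a were not above background.

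Male and female pools were compared over the 4 strains. No member passed in limma (0 of 33, and 0 at an unadjusted p under 0.05), and 0% of all tested probes passed. The smallest p-values among members were those of Psmb3 (male minus female 0.27, SE 0.18), Psmb1 (0.19, SE 0.13) and Psmb6 (0.26, SE 0.22), each with a limma adjusted p of 0.926. Within single strains there is 1 pool per sex and no test. In BDIX the male pool was higher for 14 of 14 core genes, with a median of 0.47, and for 12 of 18 regulatory genes, with a median of 0.09, while the median of all tested probes was -0.03. The beta ring had the largest median there, 0.77, from 0.29 for Psmb4 to 1.07 for Psmb6. In BDIV, Mss4a and Mss4d the beta ring medians were -0.03, 0.12 and -0.01.

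The BDIX female pool carried the lowest value of the 8 arrays for 7 of 7 beta ring genes. Psmb6, which holds the caspase-like site, was at 11.11 in that pool and 12.17 in the BDIX male pool, 12.68 and 12.68 in BDIV, 11.87 and 12 in Mss4a, and 12.29 and 12.14 in Mss4d. Psmb5, which holds the chymotrypsin-like site, was at 11.53 and 12.43 in BDIX, 13 and 12.90 in BDIV, 12.66 and 12.94 in Mss4a, and 12.83 and 12.65 in Mss4d. In both genes the BDIX female pool lay below the other 7 arrays. Psmb7, which holds the trypsin-like site, was at 11.72 in that pool and between 12.20 and 12.52 on the others. Of the promoters of these 7 genes, those of Psmb2, Psmb5 and Psmb6 hold TGACNNNGC and those of Psmb1, Psmb3, Psmb4 and Psmb7 do not. Granulocyte markers had summed normalised signals of 1403 in the BDIX female and 7318 in the BDIX male pool, and of 558 and 8137 in Mss4a, where the beta ring medians were -0.02 and 0.05. Their part in the result was not tested.

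**Figure D5:**
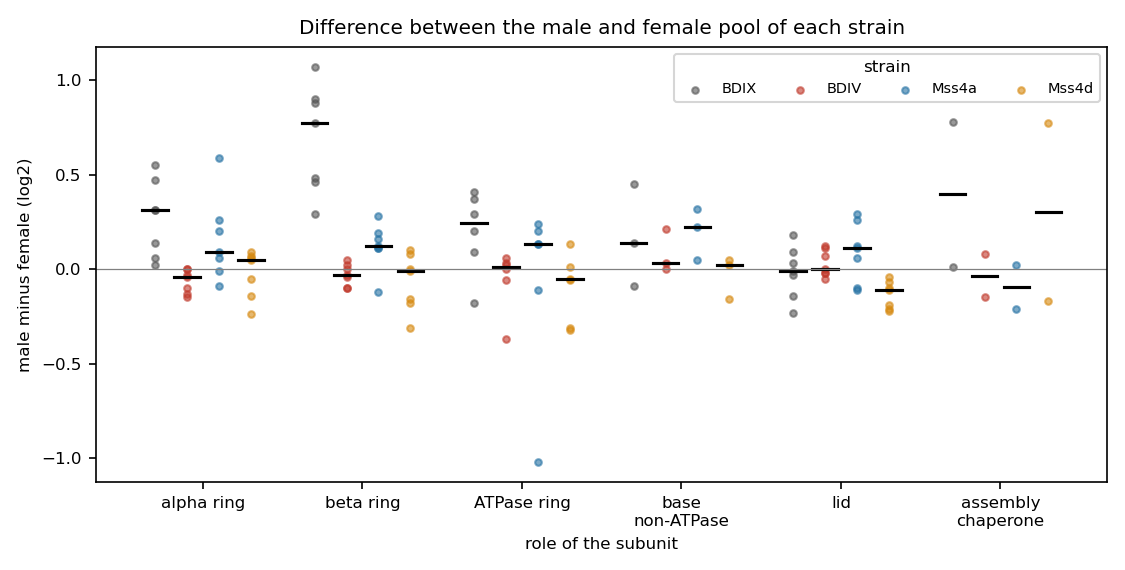
Male minus female log2 value of each tested gene within each strain, by role of the subunit (points, coloured by strain; bars are medians). The beta ring in BDIX stands at a median of 0.77, and its medians in the other strains lie between -0.03 and 0.12.

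Genes that work with the proteasome were followed as lists of known partners. Each list is short and is read beside the share of all tested probes that passed. This share was 21% in BDIV minus BDIX, 12.2% in Mss4a minus BDIX and 5.34% in Mss4d minus BDIX. It was 33.1% in BDIV minus Mss4a, 30% in BDIV minus Mss4d and 1.22% in Mss4a minus Mss4d. The 3 immunoproteasome genes, whose products replace the catalytic beta subunits in immune cells or after interferon, passed once in 6 strain comparisons. This was Psmb9, higher in BDIV than in Mss4a (log2 1.07). Psmb9 was not detected on either Mss4a array and met the filter only through the other strains, so no test is read from it. In BDIX, Psmb8 was at 7.75 (female pool) and 9.44 (male pool), Psmb9 at 5.38 and 6.66, and Psmb10 at 10.27 and 11.76. The female pool was the lower one for all 3, as for the constitutive beta ring. In Mss4d the female pool was also the lower one for Psmb8 (8.9 and 10.21), Psmb9 (5.84 and 6.81) and Psmb10 (11.34 and 11.47). There the constitutive beta ring had a median male minus female value of -0.01. The core assembly factors Psmg1, Psmg2 and Pomp passed in no comparison. They were at 0.59, 0.56 and 1.06 in BDIV minus BDIX, and Pomp, which matures the beta ring, was at 7.78 in the BDIX female pool and 8.87 in the BDIX male pool, below the 8.88 to 9.49 of the other strains. Of 3 activators tested, Psme4 alone passed, lower in Mss4a than in BDIX (log2 -1.02, SE 0.18, limma adjusted p = 0.0235).

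Nfe2l1 had no named probe and was not measured, and Ddi2 and Maff were too dim to be tested. Of 5 tested regulators of proteasome gene transcription, Nfe2l2 fell in BDIV against BDIX (log2 -1.10, SE 0.19, limma adjusted p = 0.0123) and in Mss4a against BDIX (-0.80, SE 0.19, adjusted p = 0.0421). Mafg, a small Maf protein gene, rose in BDIV against BDIX (0.78, SE 0.19, limma adjusted p = 0.0313). Of all tested probes 21% passed in BDIV against BDIX and 12.2% in Mss4a against BDIX. The 7 members whose promoter holds TGACNNNGC were at -0.36 (Psma3), 0.57 (Psmb2), 0.96 (Psmb5), 1.04 (Psmb6), 0.34 (Psmd1), 1.60 (Psmd3) and 0.76 (Psmd9) in BDIV minus BDIX, where Psmd3 alone passed. Of 8 tested ubiquitin receptors, deubiquitinases and shuttles, Ubqln4, a shuttle, rose in Mss4a against BDIX (1.07, SE 0.20, limma adjusted p = 0.0253), and 0 passed in BDIV or Mss4d against BDIX. Uchl5, a deubiquitinase of the proteasome, was higher in BDIV than in Mss4a and Mss4d, and Ubqln2 was higher in BDIV than in Mss4d. Ubqln4 went the other way, lower in BDIV than in Mss4a (-1.62, SE 0.20, limma adjusted p = 0.00328) and in Mss4d (-0.69, SE 0.20, adjusted p = 0.0413). Of 7 tested genes of ubiquitin and its transfer, Ube2d1, a conjugating enzyme, rose in BDIV against BDIX (1.58, SE 0.31, limma adjusted p = 0.0164).

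Of 6 tested genes of the p97 unfoldase, which extracts proteins for the proteasome, its ATPase Vcp rose in BDIV against BDIX (0.99, SE 0.19, limma adjusted p = 0.0148) and in Mss4a against BDIX (0.83, SE 0.19, adjusted p = 0.0364). Its cofactors Ufd1 and Nsfl1c fell in Mss4a against BDIX (-1.14 and -1.43, limma adjusted p = 0.0229 and 0.0127). Of 7 tested genes of the chaperonin CCT, a folding ring unrelated to the proteasome, 0 passed in BDIV against BDIX and Cct2 and Cct5 fell in Mss4a against BDIX. Over all tested probes 21% passed in BDIV against BDIX and 12.2% in Mss4a against BDIX. The CCT median was 0.04 in BDIV minus BDIX, beside 0.42 for the proteasome members and -0.03 for all tested probes. In BDIV minus Mss4a it was 0.41, beside 0.40 for the members, and Tcp1, Cct2 and Cct5 passed, higher in BDIV. In BDIV minus Mss4d it was 0.27, beside 0.23 for the members, and Cct5 passed, higher in BDIV. Of all tested probes 33.1% and 30% passed in these comparisons.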

How the data were processed

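Per the labels, total RNA of pooled trigeminal nerves was isolated with TRIzol, turned into biotin-labelled cRNA and hybridised to Illumina RatRef-12 arrays. Per the labels, the arrays were read with GenomeStudio 2010. The deposited table holds each probe's bead signal as linear intensity, not background corrected, with the authors' detection p-value beside each signal, in steps of 0.00121. A second table of intensity by the authors was, tested on the values, a straight-line function of each array's signal (largest residual 0.0143). It was used as an alternative.

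In R 4.3.3 with limma 3.58.1, neqc (offset 16) corrected the background and quantile normalized log2 values. The 13114 of 22523 probes detected (p under 0.05) on 2 or more arrays were tested. Symbols came from the platform annotation: 13793 probes had 1 symbol, 0 several and 8730 none. All 35 members matched a RefSeq gene by identifier. Each gene was fitted with strain and sex over 8 arrays, leaving 3 residual degrees of freedom (4.09 prior). Adjusted p-values are Benjamini-Hochberg over all tested probes, two-sided, in 6 strain comparisons, the comparison of sexes and an F test over strains. The fit was tested on simulated data. Whether the effect of sex differs between strains could not be tested, since no degrees of freedom remain for it. The number of arrays limits the precision.

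Members, gene lists, marker lists and tests were chosen with earlier results of these data known. Values on every array are given by a rule: per comparison and particle the 3 smallest p-values past the threshold each way, the 5 smallest of the F test, the 3 smallest for sex, and members undetected in both pools of a strain. Psma2, Psma4, Psmb5, Psmb7, Psmc4, Psmc6 and Psmd9 were added after their values were seen. Alternatives were no background correction, scaling to medians, no filter, a filter of detection p under 0.01 on every array, the authors' values, only the 4 arrays compared, and each array left out. Each gene rests on 1 probe, so a sequence variant under a probe, or signal shared with the gene's processed copies, was not tested.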

Additional observations from a re-analysis of the deposited data

Results flagged for a closer look

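The male minus female difference of the proteasome genes was not alike in the 4 strains. For the core genes its median log2 value was 0.47 in BDIX, -0.04 in BDIV, 0.12 in Mss4a and 0.00 in Mss4d. The regulatory genes had medians of 0.09 in BDIX, 0.01 in BDIV, 0.12 in Mss4a and -0.09 in Mss4d. The signs differ between strains, each value rests on 1 pool per sex, and the difference between strains was not tested, as no degrees of freedom remain for it.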

How the results depend on the processing

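None of the 27 gene results past the threshold reversed under any alternative. With arrays scaled to their medians, which put the median of all tested probes at 0.04 in BDIV minus BDIX, -0.37 in Mss4a minus BDIX, 0.25 in Mss4d minus BDIX, 0.46 in BDIV minus Mss4a, -0.65 in Mss4a minus Mss4d and -0.12 in BDIV minus Mss4d, members past the threshold numbered 33 in the F test, 18 in BDIV minus BDIX (all higher), 14 in Mss4a minus BDIX (all lower), 11 in Mss4d minus BDIX (all higher), 31 in BDIV minus Mss4a (all higher) and 31 in Mss4a minus Mss4d (all lower). The shares of all tested probes past it were then 69.3%, 24.8%, 30.5%, 20.8%, 45.9% and 50.9%, in the same order. Without background correction there were 15 in the F test, 12 in BDIV minus BDIX, 7 in Mss4a minus BDIX and 0 in Mss4a minus Mss4d, where 38.3%, 22.6%, 10.6% and 0.671% of all probes passed. With the authors' values there were 2 in Mss4a minus BDIX and 0 in Mss4a minus Mss4d, and the same numbers came from the 4 arrays compared alone. With detection p under 0.01 on all 8 arrays there were 11 of 28 in BDIV minus BDIX and 2 of 28 in Mss4a minus BDIX, where 34.6% and 16.2% of all probes passed. Without a filter there were 0 in Mss4a minus Mss4d. The share of all probes is not given for the authors' values, the 4 arrays alone or the fit without a filter. Those counts are therefore not read as a result about the members. The cause of these changes was not tested. With 1 array left out, counts ran from 0 to 14 in the F test, 0 to 11 in BDIV minus BDIX, 0 to 2 in Mss4a minus BDIX, 0 to 5 in Mss4d minus BDIX, 0 to 1 in Mss4a minus Mss4d, 2 to 14 in BDIV minus Mss4a, 2 to 6 in BDIV minus Mss4d and 0 to 0 between sexes. In these fits the spread of a lone array was taken from the remaining strains. Core minus regulatory ran from -0.02 to 0.23 in BDIV minus BDIX, -0.07 to 0.22 in Mss4a minus BDIX, 0.02 to 0.28 in Mss4d minus BDIX, -0.09 to 0.02 in Mss4a minus Mss4d, -0.04 to 0.06 in BDIV minus Mss4a and -0.07 to 0.02 in BDIV minus Mss4d. No paired analysis was possible because the labels give no replicate numbers, and sex is already a term of the fit. Slide as a block was not run, since the file headers name no slide. Low signal limits Psmd8, Psma3, Psmc6 and Psmc3ip, each undetected on at least 1 array.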
